A study of Oryza sativa with 36 samples.

Results

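The genes described here are the rice inositol tetrakisphosphate kinases, named ITPK1 to ITPK6, chosen by gene symbol or synonym in the array annotation. Of the 6 symbols, 5 had probe sets on the array (6 probe sets in all), out of 17905 genes with a probe set mapped to 1 gene. ITPK6 was not analysed here. The genes, with their identifiers in the annotation, were ITPK1 (4347947), ITPK2 (4332146, also named DSM3), ITPK3 (4333967), ITPK4 (4329322) and ITPK5 (4349492). Each gene was read from its brightest probe set, the one with the highest mean over all 36 arrays. ITPK3 alone had another probe set, whose log2 signal was 2.39 to 3.44 and lay at or below the array median on 18 of 36 arrays. Genome coordinates are not given, because the files name no genome build.

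RNA was taken from endosperm and embryo of imbibed rice (Oryza sativa) seeds, of the cultivar Nipponbare where one is labelled, after 0, 4, 8, 12, 16 and 24 h in sterile distilled water with air bubbling, in darkness at 30 °C. No other treatment was applied, and the 0 h seed was the reference for each tissue. Each of the 12 groups of tissue and time held 3 Affymetrix arrays, numbered 1, 2 and 3 in endosperm and 1, 4 and 5 in embryo, and the values are log2 GCRMA signals. The labels call the same samples embryo in one field and embryonic axis in another, and nothing in them says whether replicates were independent cultures. Arrays of a group came from different harvest days, except that endosperm 8 h replicates 2 and 3, and embryo 0 h replicates 4 and 5, shared a day. The p-values thus reflect the variation among the arrays at hand, and between arrays of a shared day it could be technical alone.

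Phytate, or inositol hexakisphosphate, is the main phosphorus store of cereal grains, and in rice most of it lies in the aleurone layer and the embryo. It is built by kinases that add phosphates to inositol one after another, and phytases release that phosphate again when the seed germinates. Inositol tetrakisphosphate kinases of the ITPK family, which belong to the ATP-grasp fold, phosphorylate intermediates of this ladder, and plant members can also act on phytate itself to make pyrophosphates.

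The arrays of the tissues appear to have been scaled apart. The array medians were alike (2.72 to 2.81 in endosperm and 2.80 to 2.93 in embryo), but the 75th percentile was 4.12 to 4.53 in endosperm and 5.21 to 5.77 in embryo. Tissue differences are therefore given under other scalings too. Replicates correlated at 0.989 to 0.998 over all probe sets. Of 11 endosperm markers, among them glutelins, starch enzymes and the transcription factor NFYB1, 10 were higher on every endosperm array than on any embryo array, and GLUB4 lay at the floor in both. Of 6 embryo markers, 5 were higher in embryo, and OSH1, OSH71 and OSH6 did so with no overlap between tissues. Of 5 aleurone and scutellum markers, 4 had the higher median in endosperm, and the mean level of all 5 in endosperm was 9.12 at 0 h and 10.88 at 24 h. The 3′ minus 5′ difference of the control probe sets, a sign of RNA quality and labelling, averaged 2.29 at 0 h and 3.34 at 24 h in endosperm, and 1.67 at 0 h and 1.51 at 24 h in embryo. It therefore moved with the tissue and with time in endosperm, and its part in the results below was not tested. In bulk tissue, fewer cells of a type and less RNA per cell cannot be told apart.

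Differences were tested with limma over 57194 rice probe sets, and calls required a log2 difference of at least 1 in size with an adjusted p (Benjamini-Hochberg) under 0.05. No filter on low values was applied, so all 5 genes were tested. All 5 changed over the 6 times in endosperm, against 17.2% of all probe sets, and all 5 did so in embryo, against 29.0% (limma F test, with a range of group means of at least 1). Of the 28597 probe sets with a mean above the median, as all 5 genes had, 9829 were called in endosperm and 16044 in embryo. The shares of all probe sets given below include the dimmer ones as well. The range of group means in endosperm was 1.03 for ITPK5 and 2.89 for ITPK4, and in embryo 1.20 for ITPK5 and 5.63 for ITPK4, with the other genes between these. Without endosperm 0 h replicate 1, 3 of the 5 genes were called in endosperm, because the ranges of ITPK3 and ITPK5 were then 0.97 and 0.95. The ITPK3 range was also 0.95 without endosperm 24 h replicate 1, and the ITPK5 range 0.998, just under the minimum, without endosperm 4 h replicate 2. The ITPK5 range in endosperm was 0.96 with 75th percentile centring and 0.85 after quantile normalization. With the probe sets of a gene averaged, the ITPK3 range was 0.59 in endosperm and 0.94 in embryo, and neither was called.

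**Figure D1:**
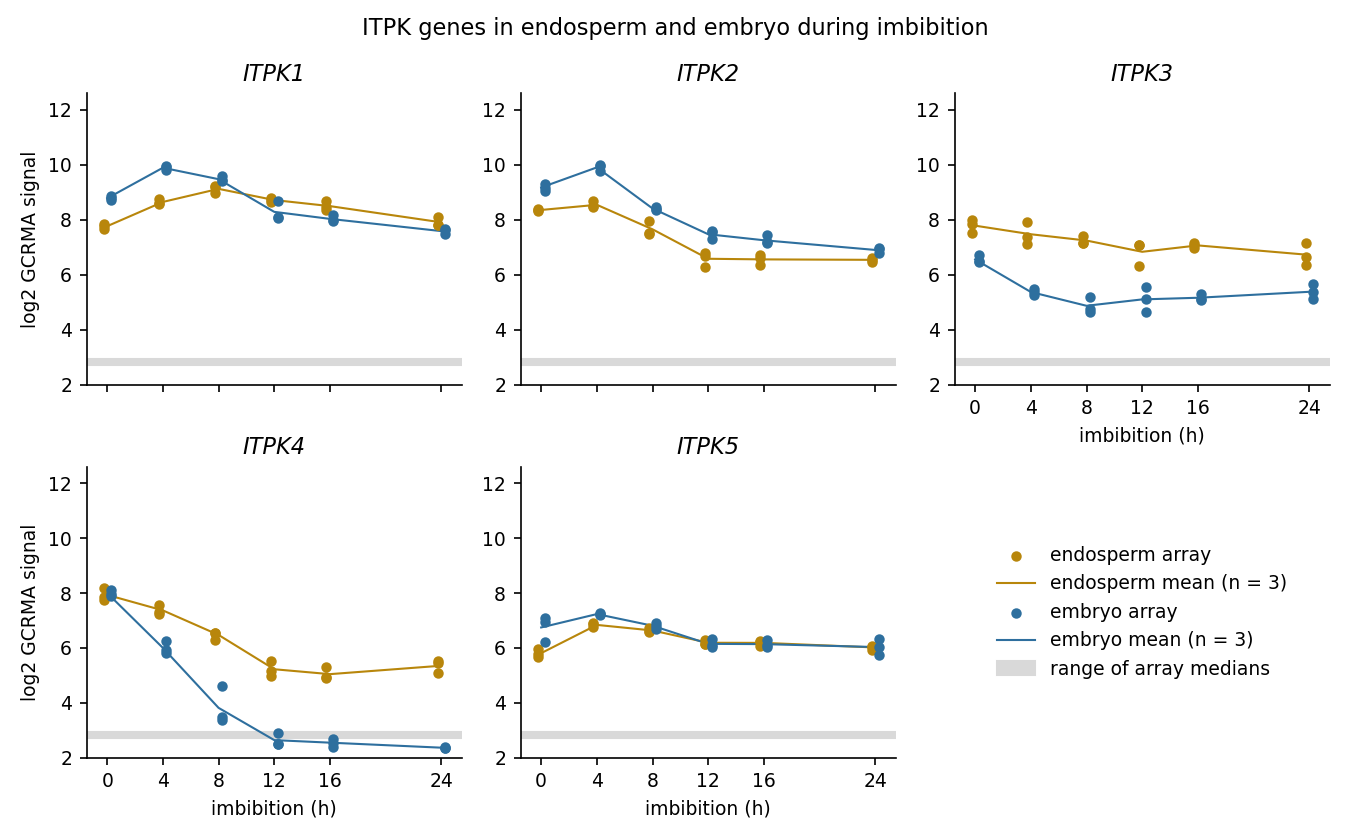
Log2 GCRMA signal of the 5 ITPK genes (vertical axis) against hours of imbibition (horizontal axis), with a point for each array, a line through the means of 3 arrays, and a grey band for the range of array medians. ITPK1 peaks at 8 h in endosperm and at 4 h in embryo, while ITPK4 keeps means of 5.05 or more in endosperm and reaches the band in embryo from 12 h.

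ITPK1 went through a transient maximum in both tissues, later in endosperm than in embryo. In Arabidopsis, an ITPK1 kinase has been shown to make inositol pyrophosphates. In endosperm its signal was 7.66, 7.86 and 7.79 at 0 h, 8.62, 8.77 and 8.56 at 4 h, 9.22, 9.18 and 8.98 at 8 h, 8.80, 8.63 and 8.73 at 12 h, 8.37, 8.67 and 8.45 at 16 h, and 7.80, 8.11 and 7.82 at 24 h. In embryo it was 8.71, 8.79 and 8.85 at 0 h, 9.95, 9.82 and 9.93 at 4 h, 9.41, 9.43 and 9.59 at 8 h, 8.09, 8.08 and 8.70 at 12 h, 7.95, 8.17 and 7.98 at 16 h, and 7.67, 7.47 and 7.63 at 24 h. All 3 endosperm arrays at 8 h exceeded every endosperm array of the other times, and all 3 embryo arrays at 4 h exceeded every other embryo array, whereas the 24 h endosperm arrays overlapped those at 0 h.

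In endosperm, ITPK1 rose by 1.36 ± 0.12 at 8 h against 0 h (SE of the limma fit, n = 3 per group, adjusted p = 1.45e-09). Its differences of 0.88 ± 0.12 at 4 h and 0.95 ± 0.12 at 12 h missed the minimum of 1, and that of 0.14 ± 0.12 at 24 h had an adjusted p of 0.349 in limma. Under spike-in centring the endosperm difference at 4 h was 1.20 and was called. In embryo, ITPK1 rose by 1.11 ± 0.12 at 4 h (limma, adjusted p = 2.63e-08) and fell by 1.19 ± 0.12 at 24 h (adjusted p = 2.43e-09), both against 0 h. The 8 h value in endosperm was above the next highest, at 12 h, by 0.41 (adjusted p = 0.0314), while the 12, 4 and 16 h values overlapped. In embryo the 4 h value was above that at 8 h by 0.42 (adjusted p = 0.0108), and of the other neighbours in the order, 12 and 16 h overlapped. Between 4 and 8 h the gene changed by 0.48 in endosperm and by -0.42 in embryo, a difference of 0.89 ± 0.17 with adjusted p = 0.00138 in limma that missed the minimum of 1. Within harvest days shared with 0 h, the endosperm difference at 8 h was 1.23 to 1.56 on 2 days and the embryo difference at 4 h was 0.995 to 1.24 on 2 days. With each array centred on its 75th percentile, the embryo difference at 4 h was 0.81, and with spike-in centring the embryo difference at 24 h was -0.79, each below the minimum.

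ITPK5 had its highest mean at 4 h in each tissue. In endosperm its signal was 5.66, 5.80 and 5.98 at 0 h, 6.76, 6.90 and 6.86 at 4 h, 6.59, 6.71 and 6.60 at 8 h, and between 5.94 and 6.28 on the 9 arrays from 12 to 24 h. In embryo it was 6.22, 7.08 and 6.94 at 0 h, 7.27, 7.18 and 7.25 at 4 h, 6.92, 6.81 and 6.70 at 8 h, and between 5.74 and 6.34 on the 9 arrays from 12 to 24 h. The 3 endosperm arrays at 4 h lay above every other endosperm array, and in embryo replicate 1 at 0 h was low beside the other 2 arrays of its group.

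In endosperm, ITPK5 rose by 1.03 ± 0.15 at 4 h against 0 h (limma, adjusted p = 1.18e-05), a value at the minimum, which became 0.95 without endosperm 0 h replicate 1 and 0.998, just under the minimum, without endosperm 4 h replicate 2. It was 0.83 with 75th percentile centring and 0.85 after quantile normalization. The other endosperm differences against 0 h were 0.82, 0.38, 0.37 and 0.21 at 8, 12, 16 and 24 h, and the embryo differences were 0.49, 0.06, -0.60, -0.61 and -0.71 at 4, 8, 12, 16 and 24 h, none of which was called. The embryo difference at 4 h was 0.22 without embryo 0 h replicate 1 and 0.19 with 75th percentile centring. Under spike-in centring the endosperm difference at 8 h was 1.04 and was called. In both tissues the 12 h arrays overlapped those at 16 h, and the 16 h arrays those at 24 h.

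ITPK2, also called DSM3 because rice lines with altered levels of it differ in drought tolerance, fell in both tissues. In endosperm its signal was 8.32, 8.40 and 8.36 at 0 h, 8.49, 8.69 and 8.46 at 4 h, 7.53, 7.96 and 7.47 at 8 h, 6.27, 6.79 and 6.69 at 12 h, 6.60, 6.36 and 6.72 at 16 h, and 6.47, 6.55 and 6.61 at 24 h. In embryo it was 9.32, 9.15 and 9.07 at 0 h, 9.76, 9.99 and 9.98 at 4 h, 8.40, 8.37 and 8.47 at 8 h, 7.58, 7.30 and 7.54 at 12 h, 7.15, 7.44 and 7.18 at 16 h, and 6.98, 6.79 and 6.94 at 24 h. In both tissues the highest mean was at 4 h and the arrays from 12 h on lay below every earlier array.

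Against 0 h, ITPK2 fell by 1.82 ± 0.13 in endosperm at 24 h (limma, adjusted p = 9.06e-12) and by 2.27 ± 0.13 in embryo at 24 h (adjusted p = 1.83e-14). At 12 h it fell by 1.78 in endosperm and fell by 1.70 in embryo. In endosperm the 12, 16 and 24 h values overlapped, and in embryo those at 12 and 16 h did. The embryo difference at 4 h of 0.73 ± 0.13 had adjusted p = 3.6e-05 and missed the minimum of 1, but under spike-in centring it was 1.10 and was called. The change in endosperm minus that in embryo was -0.54, 0.06, -0.07, 0.12 and 0.46 at 4, 8, 12, 16 and 24 h, with SE 0.18 throughout. None was called, and the interval at 24 h ran from 0.09 to 0.83 (95%, limma, adjusted p = 0.0584). Within the 2 harvest days that held both times, the endosperm difference at 24 h was -1.93 to -1.81, while no day held both 0 and 24 h embryo arrays.

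ITPK4 showed the largest change of the 5 genes in each tissue, and fell further in embryo. Like the other members it is classed as an ITPK by its annotation. In endosperm its signal was 7.87, 8.17 and 7.76 at 0 h, 7.55, 7.31 and 7.25 at 4 h, 6.56, 6.56 and 6.31 at 8 h, 4.99, 5.52 and 5.17 at 12 h, 5.29, 4.95 and 4.90 at 16 h, and 5.53, 5.44 and 5.09 at 24 h. In embryo it was 7.91, 7.98 and 8.11 at 0 h, 5.82, 5.93 and 6.26 at 4 h, 3.47, 3.37 and 4.62 at 8 h, 2.52, 2.51 and 2.91 at 12 h, 2.69, 2.56 and 2.41 at 16 h, and 2.36, 2.36 and 2.38 at 24 h. The tissues overlapped at 0 h and did not overlap at any later time. From 12 h on, 8 of the 9 embryo arrays were at or below their array median, where GCRMA leaves a floor, so the fall there may be larger than measured.

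Against 0 h, ITPK4 fell by 2.58 ± 0.22 in endosperm at 24 h (limma, adjusted p = 2.57e-10) and by 5.63 ± 0.22 in embryo at 24 h (adjusted p = 1.88e-17). In embryo it had fallen by 2.00 ± 0.22 at 4 h and by 4.18 ± 0.22 at 8 h. In endosperm the difference was -0.56 ± 0.22 at 4 h, with adjusted p = 0.0839 in limma, and it fell by 1.46 ± 0.22 at 8 h and by 2.71 ± 0.22 at 12 h. Neighbours in the order of the 12, 16 and 24 h means differed by at most 0.18 in either tissue, with adjusted p of 0.904 or more in limma, although the embryo arrays at 16 and 24 h did not overlap. The endosperm change minus the embryo change was 1.43, 2.72, 2.65, 2.56 and 3.05 at 4, 8, 12, 16 and 24 h (SE 0.31), and each was called, the last with adjusted p = 1.08e-08. At 4 h the difference was 1.38 with an adjusted p of 0.0745 under spike-in centring. The step between 4 and 8 h was -0.89 in endosperm and -2.18 in embryo, and the difference of 1.29 ± 0.31 (limma, adjusted p = 0.0102) was 0.94 after quantile normalization and 1.47 with adjusted p = 0.0987 under spike-in centring. Within harvest days, the endosperm difference at 24 h was -2.64 to -2.32 on 2 days, and the embryo difference at 12 h was -5.54 to -5.39 on 2 days.

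The endosperm markers also fell in embryo, as ITPK4 did. Their mean over 11 genes was 7.50 (7.43 to 7.58) in embryo arrays at 0 h, 6.73 (5.77 to 7.42) at 4 h, 6.11 (5.85 to 6.43) at 8 h, 5.07 (4.40 to 6.06) at 12 h, 4.82 (3.99 to 5.38) at 16 h and 4.39 (4.14 to 4.82) at 24 h, with 1 or 2 of the 11 at or below the array median on all 3 arrays of a time. In endosperm the same mean stayed between 11.17 and 11.60 on every array. Among the markers, GLUA2, a glutelin, ranged from 3.98 to 9.19 in embryo and from 13.34 to 13.69 in endosperm, and Wx, the granule-bound starch synthase, from 4.82 to 9.55 in embryo and from 13.42 to 13.74 in endosperm. ITPK4 at 0 h differed by -0.07 ± 0.22 between endosperm and embryo, while the marker mean at 0 h was 11.45 in endosperm and 7.50 in embryo. In embryo the mean of ITPK3 was 4.87 (4.64 to 5.20) at 8 h and 5.38 (5.10 to 5.68) at 24 h, and these arrays overlapped. The part of residual endosperm in the embryo falls of the ITPK genes was not tested.

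ITPK3 was higher in endosperm than in embryo at every time. Its signal in endosperm was 7.98, 7.52 and 7.86 at 0 h, 7.13, 7.37 and 7.92 at 4 h, 7.15, 7.42 and 7.16 at 8 h, 6.34, 7.10 and 7.07 at 12 h, 6.96, 7.07 and 7.17 at 16 h, and 6.37, 7.17 and 6.63 at 24 h. In embryo it was 6.72, 6.46 and 6.49 at 0 h, 5.46, 5.28 and 5.37 at 4 h, 4.77, 4.64 and 5.20 at 8 h, 5.56, 5.11 and 4.64 at 12 h, 5.06, 5.13 and 5.30 at 16 h, and 5.36, 5.10 and 5.68 at 24 h. The tissues did not overlap at any time, all embryo arrays from 4 h on were below those at 0 h, and in endosperm the arrays of neighbours in the order of means (0, 4, 8, 16, 12 and 24 h) overlapped, whereas all 8 h arrays lay above all 12 h arrays.

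Endosperm minus embryo, ITPK3 differed by 1.23, 2.10, 2.38, 1.73, 1.91 and 1.34 at 0, 4, 8, 12, 16 and 24 h (SE 0.23), and limma called each, with adjusted p = 4.36e-05 at 0 h and 1.29e-05 at 24 h. In the single pair of arrays that shared a harvest day at each time, the differences were 1.26, 1.67, 2.39, 0.78, 1.90 and 1.01. The ITPK3 difference at 0 h was 2.40 with 75th percentile centring and 2.38 after quantile normalization, and 0.88, below the minimum, with harvest day as a block. In embryo ITPK3 fell by 1.19 ± 0.23 at 4 h and by 1.69 ± 0.23 at 8 h against 0 h, and fell by 1.18 ± 0.23 at 24 h (limma, adjusted p = 0.000126). Under spike-in centring the embryo differences at 4, 16 and 24 h were -0.82, -0.94 and -0.77. In endosperm it fell by 1.06 ± 0.23 at 24 h (limma, adjusted p = 0.000671), but this was -0.97 without endosperm 0 h replicate 1 and -0.89 without endosperm 24 h replicate 1, and -0.85 under spike-in centring. At 12 h the endosperm difference of -0.95 passed the minimum without endosperm 0 h replicate 2, 12 h replicate 2 or 12 h replicate 3, at -1.08, -1.08 and -1.07. The mean of both ITPK3 probe sets moved less, and 1 of them lay near the floor. With that mean the tissue differences were 0.78 at 0 h and 0.88 at 24 h, the embryo differences against 0 h were -0.68, -0.94, -0.84, -0.82 and -0.70 at 4, 8, 12, 16 and 24 h, and the endosperm difference at 24 h was -0.59, all below the minimum. The tissue differences at 4, 8, 12 and 16 h stayed called with averaged probe sets, each at 1.07 or more.

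**Figure D2:**
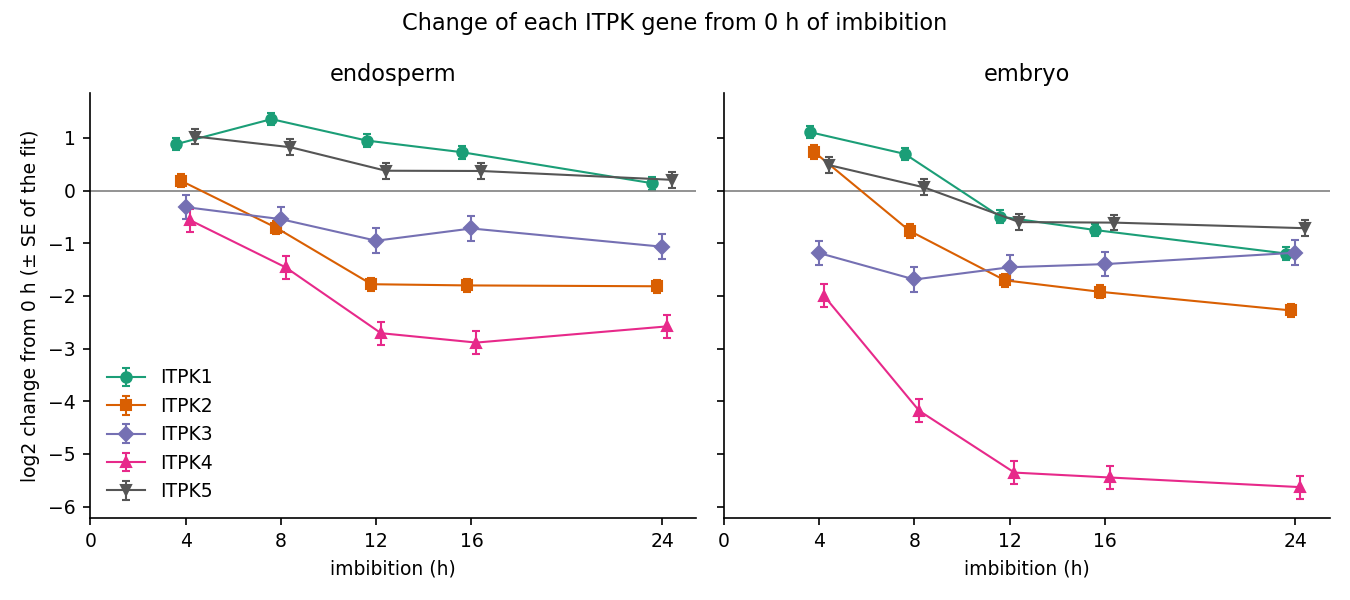
Log2 change of each ITPK gene from 0 h (vertical axis) against hours of imbibition, with endosperm on the left and embryo on the right; points are differences of means of 3 arrays and bars are the SE of the limma fit. ITPK4 reaches -2.89 in endosperm and -5.63 in embryo, ITPK2 -1.82 and -2.27 at 24 h, and ITPK1 and ITPK5 lie above 0 throughout in endosperm.

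Counted at 24 h against 0 h, 3 of 5 genes fell in endosperm (ITPK2, ITPK3 and ITPK4) and none rose, against 4.57% of all probe sets called lower and 7.33% called higher. In embryo 4 of 5 fell (those and ITPK1), against 10.1% called lower and 12.0% called higher. Of the 28597 probe sets with a mean above the median, 2597 were called lower in endosperm and 5636 in embryo. ITPK5 alone was called in neither, at 0.21 in endosperm and -0.71 in embryo, but in embryo it was -1.10 and called with 75th percentile centring, where 5 of 5 genes fell. The median over the 5 genes was -1.06 in endosperm and -1.19 in embryo, and over all probe sets it was -0.03 in endosperm and -0.05 in embryo. Under spike-in centring 2 genes, ITPK2 and ITPK4, were called lower in embryo. At 4 h, 1 gene was called in endosperm (ITPK5, higher), against 3.53% of all probe sets, and 3 in embryo (ITPK1 higher, ITPK3 and ITPK4 lower), against 11.4%.

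The sign of the tissue difference depended on the scaling for ITPK5 at every time and for ITPK1 from 0 to 12 h. It also did so for ITPK2 at every time but 4 h, and for ITPK4 at 0 h. As deposited, 2 of 5 genes were called at 0 h, against 25.6% of all probe sets and 14459 of the 28597 with a mean above the median. ITPK3 was higher in endosperm, where 2.37% of probe sets were higher, and ITPK1 was lower, at -1.01 ± 0.12, where 23.2% were lower (limma, adjusted p = 2.87e-08 for ITPK1). The ITPK1 difference was -0.96 without endosperm 0 h replicate 1 and -0.98 without embryo 0 h replicate 5, each below the minimum, and -1.04 between the arrays of the shared harvest day. At 0 h ITPK2 differed by -0.82 ± 0.13 and ITPK5 by -0.94 ± 0.15, below the minimum, and the ITPK5 difference passed it without endosperm 0 h replicate 3 (-1.02) or embryo 0 h replicate 1 (-1.20). At 24 h, 2 genes were called higher in endosperm, ITPK3 and ITPK4 (2.98 ± 0.22, adjusted p = 2.47e-12 in limma), against 2.98% of probe sets, and none lower, against 22.5%. ITPK4 was also called higher in endosperm at 4, 8, 12 and 16 h, at 1.36, 2.65, 2.58 and 2.49. At 4 h ITPK1 and ITPK2 were called lower in endosperm, at -1.24 ± 0.12 (limma, adjusted p = 6.93e-10) and -1.36 ± 0.13 (adjusted p = 3.23e-10), and after quantile normalization these were -0.014 and -0.13.

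At 0 h, with arrays centred on their 75th percentile or quantile normalized, ITPK1 differed by 0.15 or 0.28, ITPK2 by 0.35 or 0.47, ITPK4 by 1.10 or 1.20 and ITPK5 by 0.23 or 0.38, all higher in endosperm. At 24 h the same scalings gave 1.53 or 1.57 for ITPK1, 0.85 or 0.92 for ITPK2 and 1.20 or 1.26 for ITPK5. ITPK3 at all 6 times, and ITPK4 from 4 h on, were higher in endosperm under all 4 scalings. The 75th percentile centring raised every tissue difference, so it could not turn a positive sign, and quantile normalization raised these too. Under spike-in centring they were at least 1.13 for ITPK3 and 1.29 for ITPK4. Over all called probe sets, 9.27% were higher in endosperm at 0 h as deposited, 91.4% after 75th percentile centring and 46.4% after quantile normalization, and at 24 h these shares were 11.7%, 90.4% and 47.1%. The 75th percentile centring moved the median of all probe sets from near 0 to 1.10 at 0 h and 1.19 at 24 h. At 0 h ITPK1 lay below the median of all probe sets and ITPK3 above it. Over the 28597 probe sets with a mean above the median, the median at 0 h as deposited was -0.87. ITPK1, at -1.01, lay near that value. Since the 75th percentile centring shifts all probe sets alike, it could not change the order of ITPK1, ITPK3 and these medians.

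**Figure D3:**
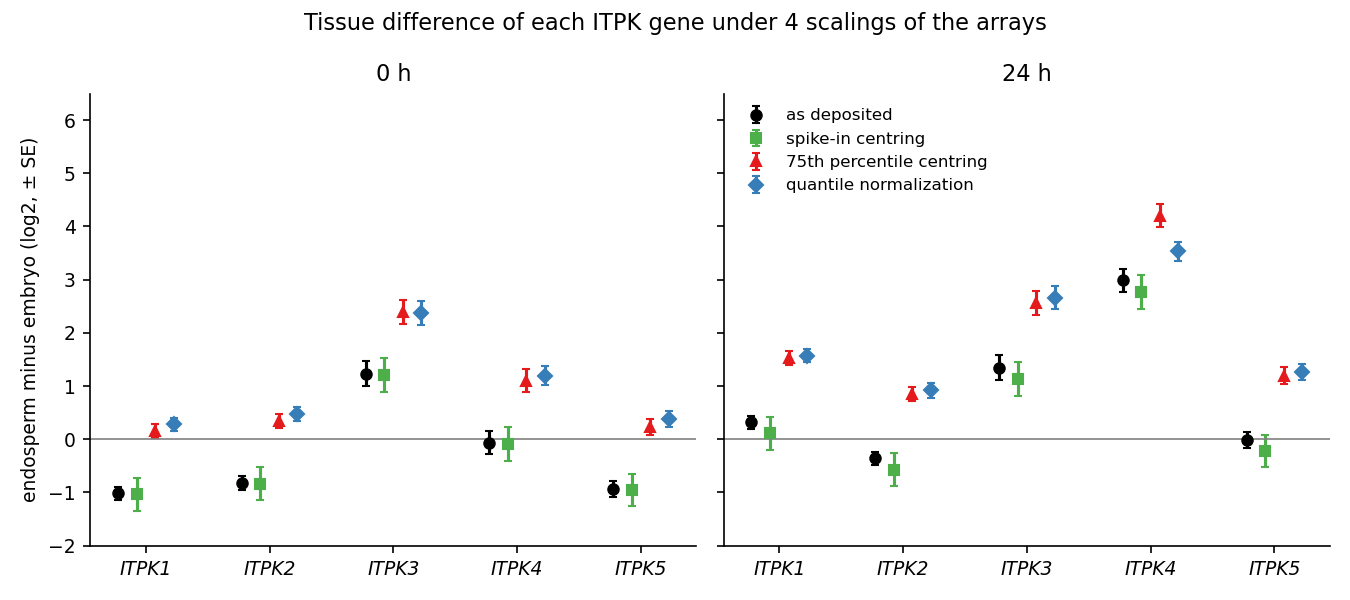
Endosperm minus embryo log2 difference of each ITPK gene (vertical axis, bars are the SE of the limma fit, n = 3 arrays per group) at 0 h on the left and 24 h on the right, under 4 scalings of the arrays. The points of ITPK3 stay above 0 at both times, and those of ITPK1, ITPK2 and ITPK5 at 0 h lie below 0 as deposited and above 0 after 75th percentile centring or quantile normalization.

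A constant shift between the tissues cancels in the change over time in endosperm minus that in embryo. At 24 h, 2 of 5 genes had a higher change in endosperm, ITPK4 (3.05 ± 0.31) and ITPK1 (1.33 ± 0.17, limma adjusted p = 5.33e-07), against 7.69% of probe sets. For ITPK1 the difference of changes was -0.23, 0.66, 1.44 and 1.48 at 4, 8, 12 and 16 h, and the values at 12 and 16 h were called. Under spike-in centring those of ITPK1 at 12, 16 and 24 h were 0.91, 1.22 and 1.14, with adjusted p of 0.256, 0.0572 and 0.0739, and were not called. For ITPK5 it was 0.54, 0.76, 0.98, 0.98 and 0.92 (SE 0.21), with adjusted p below 0.05 from 8 h on and no value at the minimum of 1. ITPK5 passed it at 8, 12, 16 and 24 h without embryo 0 h replicate 1, at 1.02, 1.24, 1.24 and 1.18. It also passed at 12, 16 and 24 h without endosperm 0 h replicate 3 (1.06, 1.06 and 1.001), at 12 h without endosperm 12 h replicate 2 (1.004) or embryo 12 h replicate 4 (1.06), at 16 h without endosperm 16 h replicate 1 (1.03) or embryo 16 h replicate 5 (1.05), and at 24 h without embryo 24 h replicate 5 (1.07).

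For ITPK3 the difference of changes was 0.87, 1.15, 0.50, 0.68 and 0.11 at 4, 8, 12, 16 and 24 h (SE 0.33), and the 8 h value alone was called (limma, adjusted p = 0.0148). The ITPK3 value at 4 h was 1.05 and was called without endosperm 4 h replicate 1. That at 8 h was not called under spike-in centring (1.27) or with averaged probe sets (0.64). The interval at 24 h ran from -0.57 to 0.80 (95%). The share of higher values among called differences of changes was 50.0% over all probe sets as deposited and 35.1% under spike-in centring.

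**Figure D4:**
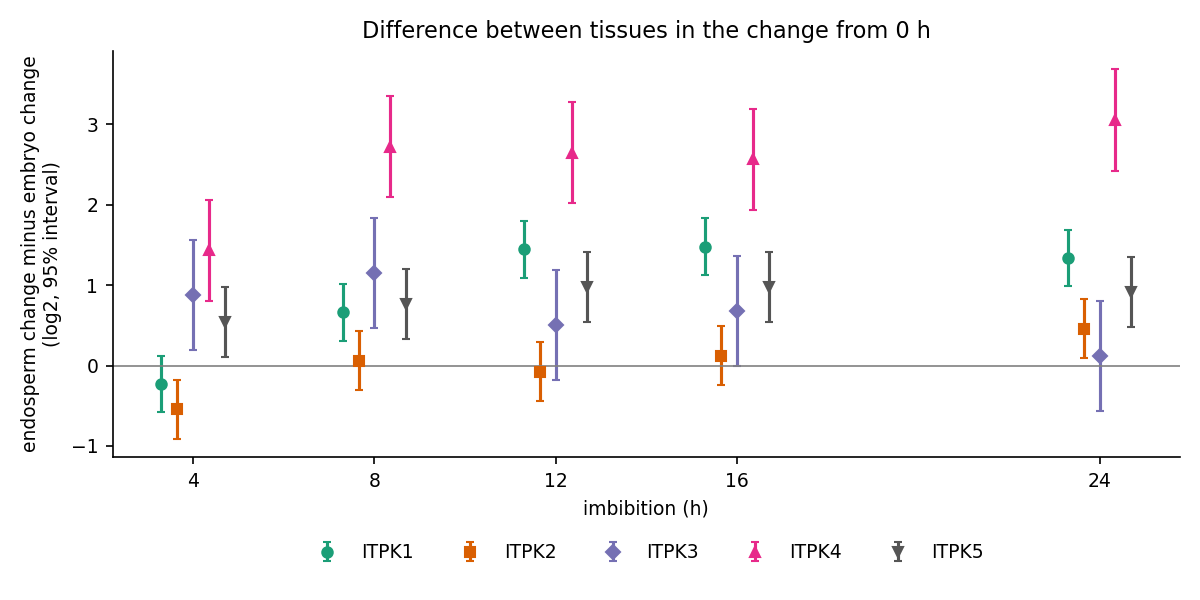
Endosperm change from 0 h minus embryo change from 0 h (vertical axis, log2) against hours of imbibition for the 5 ITPK genes; bars are 95% intervals of the limma fit, n = 3 arrays per group. ITPK4 runs from 1.43 at 4 h to 3.05 at 24 h and ITPK1 from -0.23 to 1.33, while the ITPK2 points lie between -0.54 and 0.46.

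Of 5 other genes of phytate synthesis and storage, 2 fell and 1 rose in endosperm at 24 h, and 4 fell and 1 rose in embryo, where the shares of all probe sets were those given above for these comparisons. The 5 measured were RINO1, the inositol phosphate synthase that supplies the ring, IPK2, a multikinase of the lower inositol phosphates, IPK1, which adds the last phosphate, Lpa1, a kinase-like gene whose loss gives low-phytate rice, and ABCC13, the vacuolar transporter for phytate also known as MRP5. At 24 h against 0 h, in endosperm IPK1 and Lpa1 fell by 1.59 and 2.39 and IPK2 rose by 2.41, while RINO1 and ABCC13 differed by -0.92 and 0.73 and were not called. In embryo 4 fell, RINO1 by 2.97, IPK1 by 3.94, Lpa1 by 4.52 and ABCC13 by 1.92, and IPK2 rose by 2.23. ABCC13 in endosperm rose by 1.14 at 12 h against 0 h. Over the 6 times 4 of these 5 genes were called in endosperm, against 17.2% of all probe sets. With 75th percentile centring the ABCC13 range in endosperm was 0.84, below the minimum, against 1.14 as deposited, and that of RINO1 was 1.28, above it. The RINO1 range of 0.97 as deposited passed the minimum without endosperm 0 h replicate 3 or 12 h replicate 1 (1.02 each).

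The log2 signal of Lpa1 at 24 h was 8.77, 9.10 and 8.95 in endosperm and 7.51, 7.53 and 7.96 in embryo, and at 0 h it was 11.31, 11.36 and 11.33 in endosperm and 12.22, 12.09 and 12.25 in embryo. That of IPK2 at 24 h was 6.35, 6.32 and 6.41 in endosperm and 7.50, 7.83 and 7.98 in embryo, and at 0 h it was 3.73, 3.91 and 4.22 in endosperm and 5.23, 5.79 and 5.59 in embryo. Lpa1 thus ran lower in embryo than in endosperm at 24 h and higher at 0 h as deposited, and IPK2 was higher in embryo at both times, with no overlap of tissues. The 0 h difference of Lpa1, -0.85 as deposited and not called, was 0.31 with 75th percentile centring and 0.16 after quantile normalization. The change in endosperm minus that in embryo at 24 h was 2.05 ± 0.21 for RINO1, 2.35 ± 0.18 for IPK1, 2.13 ± 0.24 for Lpa1 and 2.65 ± 0.14 for ABCC13, and these 4 were called by limma (highest adjusted p = 7.33e-08). IPK2 had 0.17 ± 0.23, with an interval from -0.30 to 0.65. For the ITPK genes this difference ran from 0.11 (ITPK3) to 3.05 (ITPK4) at 24 h. Those of ITPK1 and ITPK4 were called, against 7.69% of all probe sets called higher. Under spike-in centring that of ITPK3 was -0.077, and that of ITPK1, at 1.14, was not called.

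Between tissues, 2 of the 5 other phytate genes were called at 0 h, both lower in endosperm, against 23.2% of all probe sets, IPK2 at -1.58 ± 0.16 and ABCC13 at -1.25 ± 0.10, and under 75th percentile centring these were -0.42 and -0.08. At 24 h all 5 were called as deposited, against 2.98% of probe sets higher and 22.5% lower, with RINO1, IPK1, Lpa1 and ABCC13 higher in endosperm by 1.50, 1.46, 1.27 and 1.41 and IPK2 lower at -1.41. The 4 positive differences at 24 h kept their sign and their call under all 4 scalings, though 75th percentile centring raised every difference and could not turn them. Under spike-in centring they were 1.29, 1.25, 1.06 and 1.20. That of IPK2 was -0.20 after 75th percentile centring.

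**Figure D5:**
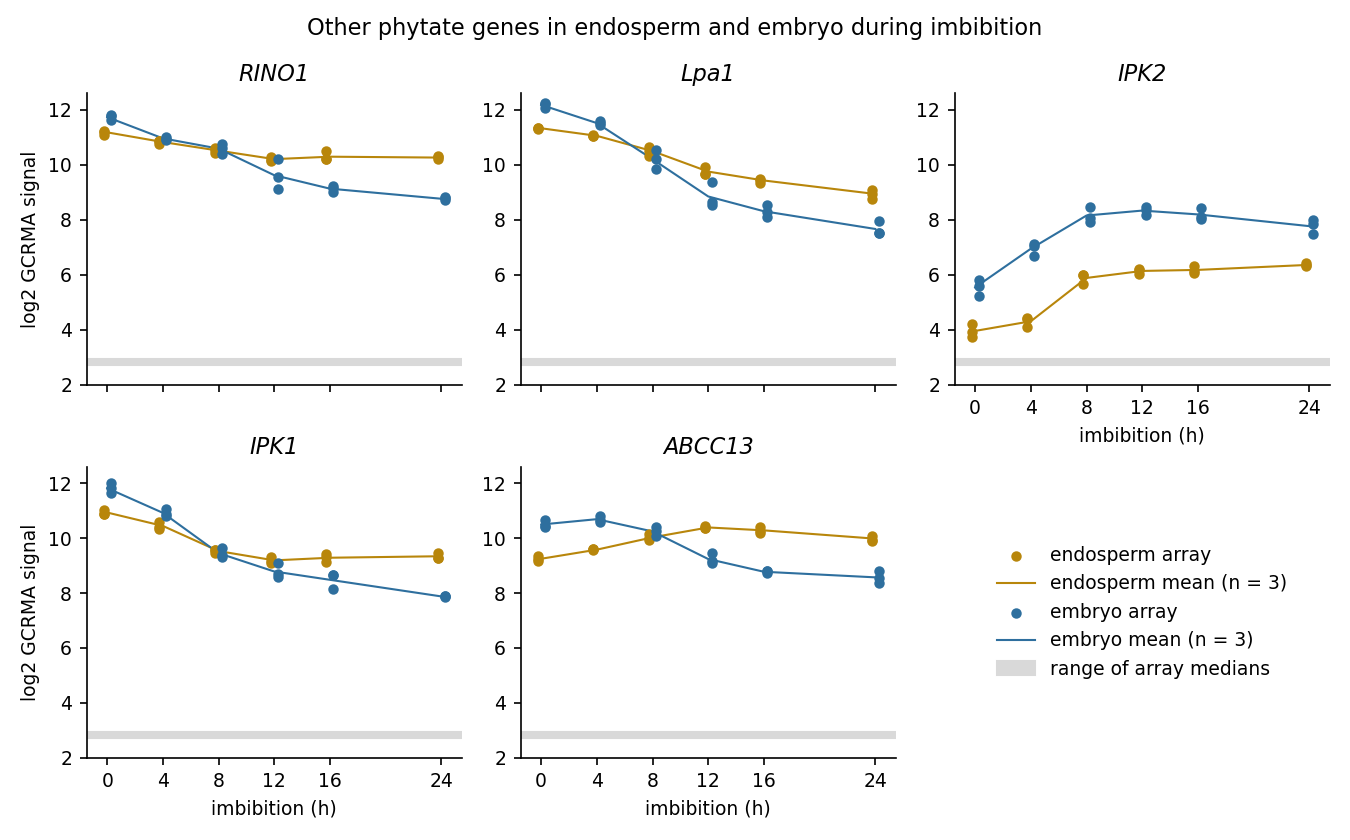
Log2 GCRMA signal of 5 other phytate genes (vertical axis) against hours of imbibition, with a point for each array, lines through the means of 3 arrays and a grey band for the range of array medians. As deposited, RINO1, Lpa1 and IPK1 start higher in embryo and end lower there, but at 0 h their differences were not called and turned to 0.61, 0.31 and 0.28 (endosperm minus embryo) with 75th percentile centring and likewise changed sign after quantile normalization. ABCC13 crosses after 8 h, and IPK2 is higher in embryo at every time.

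Over the 6 time means, ITPK2 and ITPK4 correlated at 0.97 in endosperm and 0.87 in embryo, and ITPK1 and ITPK5 at 0.79 in endosperm and 0.96 in embryo. ITPK1 and ITPK2 correlated at -0.02 in endosperm and 0.89 in embryo, and ITPK1 and ITPK3 at -0.16 in endosperm and -0.02 in embryo. ITPK3 and ITPK4 correlated at 0.93 in endosperm and 0.80 in embryo, ITPK2 and ITPK3 at 0.91 in endosperm and 0.41 in embryo, and ITPK2 and ITPK5 at 0.37 in endosperm and 0.97 in embryo. The remaining pairs were ITPK1 and ITPK4 at -0.20 in endosperm and 0.59 in embryo, ITPK4 and ITPK5 at 0.15 in endosperm and 0.75 in embryo, and ITPK3 and ITPK5 at 0.085 in endosperm and 0.21 in embryo. These correlations are descriptions over 6 points from the same arrays.

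Among 2066 genes with an informative symbol and group means spanning at least 1, those most like each kinase over the 12 group means were listed, 3 for each. For ITPK1 they were HAP3F, ABCG36 and GR (r = 0.94, 0.92 and 0.91), and for ITPK2 the clock-type regulator PRR95, CXXS1 and the calcium-sensor kinase gene CIPK19 (0.98, 0.98 and 0.97). For ITPK3 they were AGPS2, a subunit of the starch enzyme ADP-glucose pyrophosphorylase, the jasmonate repressor JAZ2 and Q-enzyme, the starch branching enzyme counted among the endosperm markers as Sbe1 (0.97, 0.96 and 0.96). For ITPK4 they were the metal transporter HMA5, REK and the calmodulin-like CML8 (0.99, 0.97 and 0.97), and for ITPK5 they were NH2, the phytoene synthase PSY1 and EIL1 (0.95, 0.95 and 0.94). All points come from the same arrays, so tissue and scaling enter each value.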

How the data were processed

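Per the labels' protocols, total RNA was amplified and biotin-labelled for Affymetrix rice arrays. The authors deposited log2 signals for 57381 probe sets, made with GCRMA per the submitters' processing notes, whose version the sources used here do not give. The deposited log2 values were used unchanged. No test included the 123 control or the 64 reporter probe sets. Genes were named from the array annotation and, for names alone, a RefSeq gene table, and 22436 probe sets mapped to 1 gene, 95 to several and 34663 to none.

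Group means for 12 groups were fitted to all 36 arrays with limma 3.58.1 in R 4.3.3 (lmFit, eBayes), and p-values were Benjamini-Hochberg adjusted over all 57194 rice probe sets. The 3 arrays per group limit precision. The procedure was tested on simulated data. Summaries used pandas 2.3.3 and numpy 2.4.6 in Python 3.11.15, and plots used matplotlib 3.10.9. The members and gene lists were chosen with earlier results of these data known. The rule for other named genes took those of a fixed list of phytate genes, and the 3 genes most like each kinase. Of that list, 5 genes had a probe set and a matching symbol, and the rest were not analysed here.

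Alternatives were 3 other scalings, blocks for replicate number or harvest day, limma's trend and robust options, tests over the brighter probe sets alone, no minimum difference, fits to the compared groups alone, averaging a gene's probe sets, replicate 1 alone, and omission of each array in turn. Same-numbered arrays of different times had residual correlations above 0.1 in 13 of 45 pairs in endosperm and 23 of 45 in embryo (medians 0.066 and 0.12), and different-numbered arrays in 14 of 90 and 6 of 90 (medians -0.020 and -0.068). Pairing was taken to require a correlation above 0.1 in every pair, so arrays were not treated as paired, although same numbers were more alike, most of all in embryo. Each tissue was harvested on 5 days.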

Additional observations from a re-analysis of the deposited data

Results flagged for a closer look

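These differences between tissues in a change over time passed limma's test of the difference itself, each given as the endosperm change minus the embryo change. The ITPK4 change from 0 h differed by 1.43 at 4 h. At 8 and 12 h the ITPK4 values were 2.72 and 2.65, and at 16 and 24 h they were 2.56 and 3.05, and the step between 4 and 8 h differed by 1.29. For ITPK1 it differed by 1.44 at 12 h, 1.48 at 16 h and 1.33 at 24 h, and for ITPK3 by 1.15 at 8 h. Among the other phytate genes the 24 h change differed by 2.05 for RINO1, 2.35 for IPK1, 2.13 for Lpa1 and 2.65 for ABCC13. No test for single arrays far from their group of 3 was run.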

How the results depend on the processing

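Of 1085 ITPK values under alternatives other than omitting an array or replicate 1 alone, 956 kept their direction and side of the threshold. So did 979 of 1020 with 1 array omitted. The replicate block, trend and robust options, brighter probe sets, no minimum and compared groups alone leave each difference itself unchanged. Under these no sign could turn. Over ITPK and other phytate genes, signs turned for 21 values with 75th percentile centring and 16 after quantile normalization. They turned for 8 with spike-in centring and 2 with the harvest day block. Every time of a tissue held each of its replicate numbers, so a replicate block could not move a difference, only its p-value. With that block all 90 ITPK values within a tissue or as differences of changes kept their side of the threshold. For instance, 2 genes were again called in the difference of the 24 h changes. Between tissues no replicate block could be fitted, as the tissues share only replicate number 1, and arrays of a shared harvest day and a harvest day block were used instead. No single day held 0 h with 16 or 24 h embryo arrays, but days were linked through other times, and with the harvest day block the same 4 genes were called in embryo at 24 h, at -1.32, -2.45, -1.41 and -5.98 for ITPK1, ITPK2, ITPK3 and ITPK4. The order of genes by level was not run with averaged probe sets, since levels of different probe sets cannot be compared. Signals at the array median limit ITPK4 in embryo from 12 h. The causes of the changes below were not tested.

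Numbers of ITPK genes called moved by over 1.5 times in these cases. For endosperm minus embryo at 24 h there were 4 after 75th percentile centring, 4 after quantile normalization, 4 with no minimum and 1 with averaged probe sets, against 2. At 0 h there were 1 with the harvest day block, 4 with no minimum, 1 with averaged probe sets and 1 to 3 with an array omitted, against 2. Spike-in centring gave 2 in embryo at 24 h, against 4, and 1 for the difference of the 24 h changes, against 2. Omitting an array gave 3 to 5 for the change over times in endosperm, against 5. Over all probe sets, dropping the minimum raised the calls at 0 h to 39314, against 14638, at 24 h between tissues to 39659, against 14592, for endosperm at 24 h to 21828, against 6806, for embryo at 24 h to 39082, against 12653, for the difference of the 24 h changes to 16025, against 8797, and for the change over times to 19779 in endosperm and 36170 in embryo, against 9819 and 16599. After 75th percentile centring 36373 were called at 0 h and 39580 at 24 h between tissues, and after quantile normalization 6910 and 8629. The share of higher calls at 24 h against 0 h was 61.6% in endosperm as deposited, 40.8% after 75th percentile centring and 73.8% after spike-in centring, and in embryo 54.3%, 40.5% and 68.3%.

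Signs turned as follows, in log2 units. With 75th percentile centring, endosperm minus embryo was 0.15, 0.35, 1.10, 0.23, 0.61, 0.28 and 0.31 at 0 h for ITPK1, ITPK2, ITPK4, ITPK5, RINO1, IPK1 and Lpa1. It was 0.021 and 0.90 for ITPK1 at 4 and 8 h, 0.49, 0.36, 0.55 and 0.85 for ITPK2 at 8, 12, 16 and 24 h, and 0.87, 1.07 and 1.20 for ITPK5 at 4, 8 and 24 h. Against 0 h it gave -0.011 for ITPK2 at 4 h and -0.20 and -0.13 for ITPK1 and ITPK5 at 24 h in endosperm, and -0.33 for ITPK5 at 8 h in embryo, and the difference of the 12 h changes of ITPK2 was 0.015. After quantile normalization the 0 h values were 0.28, 0.47, 1.20, 0.38, 0.53, 0.23 and 0.16 for the same 7 genes, with 0.83 for ITPK1 at 8 h, 0.47, 0.36, 0.57 and 0.92 for ITPK2 at 8, 12, 16 and 24 h, 0.88, 1.09 and 1.26 for ITPK5 at 4, 8 and 24 h, and -0.11 for ITPK5 in embryo at 8 h. With spike-in centring, endosperm minus embryo was -0.12 for ITPK1 and -0.51 for ITPK5 at 12 h and -0.23 for ITPK5 at 16 h, ITPK3 in endosperm at 4 h was 0.0017, and differences of changes were -0.027 for ITPK3 at 12 h, -0.14 for ITPK2 at 16 h, and -0.077 and -0.016 for ITPK3 and IPK2 at 24 h. The harvest day block gave 0.032 for ITPK5 between tissues at 24 h and -0.010 for IPK2 in the difference of the 24 h changes. With 1 array omitted, the difference of changes ran from -0.11 to 0.29 for ITPK3 at 24 h, and for ITPK2 from -0.095 to 0.15 at 8 h and from -0.18 to 0.083 at 12 h. Endosperm minus embryo ran from -0.19 to 0.018 for ITPK4 at 0 h, and for ITPK5 from -0.022 to 0.13 at 12 h, from -0.016 to 0.12 at 16 h and from -0.17 to 0.14 at 24 h. ITPK5 in embryo at 8 h ran from -0.20 to 0.23.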
